A study of Drosophila melanogaster with 81 samples.

Results

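H3K4me3, the trimethylation of lysine 4 of histone H3, was compared between w1118 embryos of 4.5 to 5 h and of 5.5 to 6 h after egg laying. The comparison used the deposited peak list of each time. Peaks were sorted by overlap of at least 1 bp into gained (in the 5.5 to 6 h list only), lost (in the 4.5 to 5 h list only) and kept. It rests on 6 of the 81 libraries of the series, 3 at each time, and on 2 of 26 lists, which hold 11064 of 233093 peaks. The libraries were made by CUT&Tag, in which an antibody brings a transposase to a chromatin mark, from nuclei of whole Drosophila melanogaster embryos. w1118 is a laboratory strain with a mutation in the eye colour gene white and otherwise served as the wild type. Eggs were laid for 30 min at 25 °C and aged at the same temperature. Both groups had the same genotype and differed by age. Lists that the sorting did not use were the w1118 H3K4me3 list of 3.5 to 4 h, the w1118 lists of other marks at the same times, and the H3K4me3 lists of HisC embryos, which are homozygous for the deficiency Df(2L)HisC. HisC embryos lack the cluster of replication-dependent histone genes, carry P{GAL4-twi.2xPE} and P{UAS:eYFP}AH2, and were picked by eYFP, so they differ from w1118 in more than the deficiency.

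H3K4me3 is placed by methyltransferases of the Set1 and Trithorax families, mostly over the first nucleosomes downstream of active promoters, and is removed by KDM5 demethylases, Lid in flies. It accompanies transcription from a promoter and persists at many genes that all cells use. At these ages the germ band of the embryo is extended, neuroblasts leave the neuroectoderm and divide, and the mesoderm is being subdivided into its later tissues. A whole embryo mixes these tissues, so fewer cells with the mark and less mark per cell cannot be told apart.

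The H3K4me3 lists stand for 3 libraries each. The w1118 lists of other marks stand for 2, except that of H2AK9ac at 4.5 to 5 h, which stands for 3. All give positions with no height, so no spread between replicates could be computed and no difference below was tested. Ranges in brackets after a share are 95% Clopper-Pearson intervals, which cover counting error only. Depth per library is unknown, and deeper libraries can give more peaks. The mark was present at genes of several lineages at both times, but not at all markers of a lineage. It lay at twi and tin of the mesoderm, at l(1)sc, SoxN, dpn and wor of the neuroectoderm, at Doc1 of the dorsal ectoderm, at fkh of the endoderm, at vvl of the trachea, at gcm and Pvr of hemocytes, at vas of germ cells and at elav of neurons. The gene ends were marked at both times for 2 of 4 mesoderm markers, 4 of 5 of the neuroectoderm and neuroblasts, 1 of 4 of the dorsal ectoderm and amnioserosa, 1 of 3 each of endoderm and trachea, 2 of 2 of hemocytes, 1 of 2 each of germ cells and neurons, and 0 of 2 of late muscle. Within 2000 bp of their ends, pnr and peb of the dorsal ectoderm, trh of the trachea, srp of the endoderm, pgc of germ cells, Mhc and Mlc2 of muscle and the odorant receptor subunit gene Orco had 0 bp at both times. The mesoderm gene htl, the tracheal gene btl and the endoderm gene GATAe had 0 bp at 4.5 to 5 h and 79, 231 and 141 bp at 5.5 to 6 h.

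The H3K4me3 landscape was nearly the same at both times, and the places that differed were narrow. The 4.5 to 5 h list held 5336 peaks over 5.471 Mb and the 5.5 to 6 h list 5728 peaks over 5.649 Mb, a log2 ratio of covered length of 0.05. They shared 5.083 Mb of a joint 6.037 Mb, a Jaccard index of 0.842. Of the 4.5 to 5 h peaks 5094 were kept and 242, or 4.54% (3.99 to 5.13%), were lost. Of the 5.5 to 6 h peaks 5097 were kept and 631, or 11%, were gained (10.2 to 11.9%). Because the numbers of kept peaks are nearly equal, the excess of gained over lost peaks is close to the difference of 392 peaks in list length. With equal numbers of the widest peaks, which leaves little room for an excess, 373 were gained and 355 lost.

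Gained and lost peaks resembled each other in width and place. Gained peaks had a median width of 295 bp (range 216 to 1301 bp) and lost peaks of 308 bp (239 to 917 bp), against 967 and 958 bp for the kept peaks of the same lists. They thus made up 3.78% and 1.54% of the covered length of their lists. Among peaks under 300 bp, 62.6% of the 5.5 to 6 h list (333 of 532) and 39.5% of the 4.5 to 5 h list (113 of 286) had no partner. Among those of 1000 bp to under 2000 bp the shares were 0.193% (4 of 2074) and 0 of 2021, and no peak of 2000 bp or more lacked a partner in either list. Of the gained peaks 40.6% lay at a gene end (within 500 bp of it), 51.3% inside a gene but away from its ends and 8.08% between genes. The lost peaks were placed alike, with 39.7%, 50.4% and 9.92%. Of the kept peaks, 84.9% at 5.5 to 6 h and 85.2% at 4.5 to 5 h were at a gene end. Most unpartnered peaks were not shifted neighbours, since 342 gained peaks (54.2%) and 130 lost peaks (53.7%) lay over 2000 bp from any peak of the other list.

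**Figure D1:**
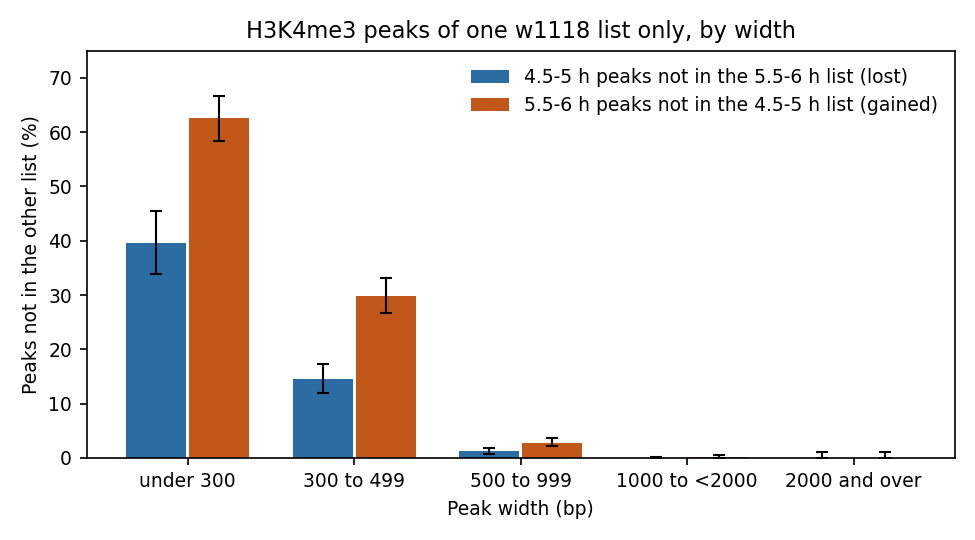
Share (%, y axis) of H3K4me3 peaks without a partner in the other list, by peak width (bp, x axis), in the w1118 lists of 4.5 to 5 h (lost) and 5.5 to 6 h (gained). The share falls from 39.5% and 62.6% under 300 bp to 0 at 2000 bp and over, and error bars are 95% Clopper-Pearson intervals.

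Kept peaks hardly differed in width. For 4856 peaks with exactly 1 partner the median was 958 bp at 4.5 to 5 h and 968 bp at 5.5 to 6 h, and the median difference was 10 bp (interquartile range −45.25 to 66 bp). The later peak was wider in 2758 pairs and narrower in 1968. It was at least 1.5-fold wider in 132 pairs (2.72%) and at least 1.5-fold narrower in 139 (2.86%).

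The widest peaks without a partner lay at genes of tissue identity as well as at genes with little annotation. All positions are on dm6. The widest gained peak, 1301 bp at 3R 21388664 to 21389964, covers the end of bap (bagpipe), a homeobox gene that specifies the visceral mesoderm, 9315 bp from the nearest 4.5 to 5 h peak. It was inside an H3K27me3 peak, the mark of Polycomb repression, over its whole 1301 bp at both times, and met no H3K27ac peak, the acetylation of active promoters and enhancers. Next came a peak of 1268 bp within esn at 2R 7106255 to 7107522, 1 of 1240 bp within GEFmeso at 2R 18582437 to 18583676, and 1 of 1091 bp at dmrt11E at X 13368562 to 13369652. The fifth, of 916 bp within if (inflated), which encodes an integrin alpha subunit, lay at X 16774275 to 16775190. The esn, dmrt11E and if peaks also overlapped H3K27me3, by 1268, 1091 and 875 bp at 4.5 to 5 h and by 1262, 1091 and 916 bp at 5.5 to 6 h. They overlapped H3K27ac as well, by 468, 0 and 916 bp at 4.5 to 5 h and by 535, 469 and 916 bp at 5.5 to 6 h. The GEFmeso peak had no H3K27me3, and 1221 bp of H3K27ac at 5.5 to 6 h against 0 at 4.5 to 5 h.

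The widest lost peaks had no H3K27me3 at either time. They were 917 bp at 2 long noncoding RNA genes beside vtd (3L 27135177 to 27136093), 801 bp at CG32573 and CG42512 (X 16651955 to 16652755), 783 bp within Myo81F (3R 863879 to 864661), 774 bp within PolA1, a DNA polymerase alpha gene (3R 21667290 to 21668063), and 763 bp within CG42238 (2L 20967528 to 20968290). Of these 5, 4 overlapped the HisC lists of both times, at all but the CG42238 peak.

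Genes were scored at their ends. A protein-coding gene was called marked if any peak came within 500 bp of its first or last base, because the gene table gives no strand, so a promoter and a 3' end are not told apart and a peak between neighbours counts for both. Of 13946 protein-coding genes 6381 (45.8%) were marked at both times, 213 (1.53%) were gained and 104 (0.746%) lost. Neighbouring genes share peaks, and 192 peaks stood behind the gained genes and 86 behind the lost ones. Of these peaks, 151 and 52 had no partner in the other list. The rest were kept peaks that reached the window at 1 time only, so a gained or lost gene need not have a gained or lost peak. With equal numbers of the widest peaks the counts were 150 gained and 152 lost. Only 98 gained and 34 lost genes had 0 bp of the mark within 2000 bp of their ends at the other time, a stricter rule chosen after seeing the data.

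Among the named genes gained from 0 bp were regulators of cell fate, nerve wiring and metabolism. The value given is the length covered by peaks within 2000 bp of the gene's ends, at 3.5 to 4 h, 4.5 to 5 h and 5.5 to 6 h in turn. Fer1HCH and Fer2LCH, which encode the heavy and light chains of the iron store ferritin and lie end to end on 3R, shared 2261, 0 and 1482 bp. Both lengths came from peaks that the 2 genes share. bap had 410, 0 and 1301 bp. dmrt11E, of the doublesex-related zinc finger family, and its neighbour Syt12, a synaptotagmin, shared 573, 0 and 1091 bp. In all of these the mark was also in the earliest list, while the 0 bp of the middle list is set by the rule that named them.

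Transporter and axon guidance genes were among the rest. Atet, an ABC transporter gene, had 1906, 0 and 797 bp, and Orct, an organic cation transporter gene, 480, 0 and 732 bp. side (sidestep), an immunoglobulin family protein that guides motor axons, had 550, 0 and 528 bp. NetB, a netrin that guides axons at the midline, had 919, 0 and 498 bp.

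The homeobox gene ct (cut), which sets the identity of external sense organs, had 575, 0 and 563 bp, and unpg (unplugged), another homeobox gene, had 407, 0 and 418 bp. fng (fringe), a glycosyltransferase that tunes the Notch receptor, had 1169, 0 and 485 bp. The metabolic genes Ldsdh1 and P5CDh1 had 897, 0 and 433 bp and 1305, 0 and 404 bp. Hey, a bHLH repressor and Notch target of newborn neurons, was the only 1 of these 15 genes with 0 bp at 3.5 to 4 h, with 0, 0 and 493 bp. Of the 15, 14 were thus also in the earliest list. H3K27me3 lay within 2000 bp of the ends of 11 of them at 4.5 to 5 h and of 13 at 5.5 to 6 h. The share over all genes is not given for windows of that size. In the narrower windows of 500 bp it lay at 23.5% and 24.9% of all 213 gained genes, and at 5.72% and 5.80% of kept genes. For genes marked at neither time the shares were 14.4% and 13.4%.

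The 15 genes named as lost to 0 bp had 299 to 917 bp at 4.5 to 5 h, with a median of 362 bp. The 15 gained ones had 404 to 1482 bp at 5.5 to 6 h and a median of 563 bp, but they are the longest of 98 and the lost ones of 34, so the lengths are not compared. vtd, the kleisin subunit of cohesin, had 0, 917 and 0 bp, from the peak beside it. Idh, an isocitrate dehydrogenase gene, had 0, 654 and 0 bp. ATPsynbetaL, related to the beta subunit of ATP synthase, had 452, 560 and 0 bp. clumsy, a glutamate receptor gene, had 0, 507 and 0 bp. mRpL54, of the mitochondrial ribosome, had 261, 439 and 0 bp and TrpRS-m, a mitochondrial tRNA synthetase, 276, 401 and 0 bp. These genes rested on short intervals in the middle list.

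The remaining lost genes were shorter still in covered length. Ucp4C, a mitochondrial uncoupling protein gene, had 0, 391 and 0 bp, mdlc (midlife crisis) 0, 362 and 0 bp, and AdamTS-B, a secreted metalloprotease gene, 255, 348 and 0 bp. Arv1 had 416, 335 and 0 bp. modSP, a serine protease of the Toll pathway, had 958, 332 and 0 bp, and Cpr73D, a cuticle protein gene, 1606, 321 and 0 bp. The neighbours bw (brown), an eye pigment transporter, and ppk3, a sodium channel gene, shared 0, 314 and 0 bp. The Hox gene Antp (Antennapedia; 3R 6896253 to 6999228) had 1179, 299 and 0 bp, and was lower at each later time. Of the 15 lost genes, 8 had the mark in the 3.5 to 4 h list. H3K27me3 lay within 2000 bp of 2 of them at each time, Antp at both, Cpr73D at 4.5 to 5 h and modSP at 5.5 to 6 h. In the narrower windows of 500 bp it lay at 12.5% and 11.5% of all 104 lost genes.

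**Figure D2:**
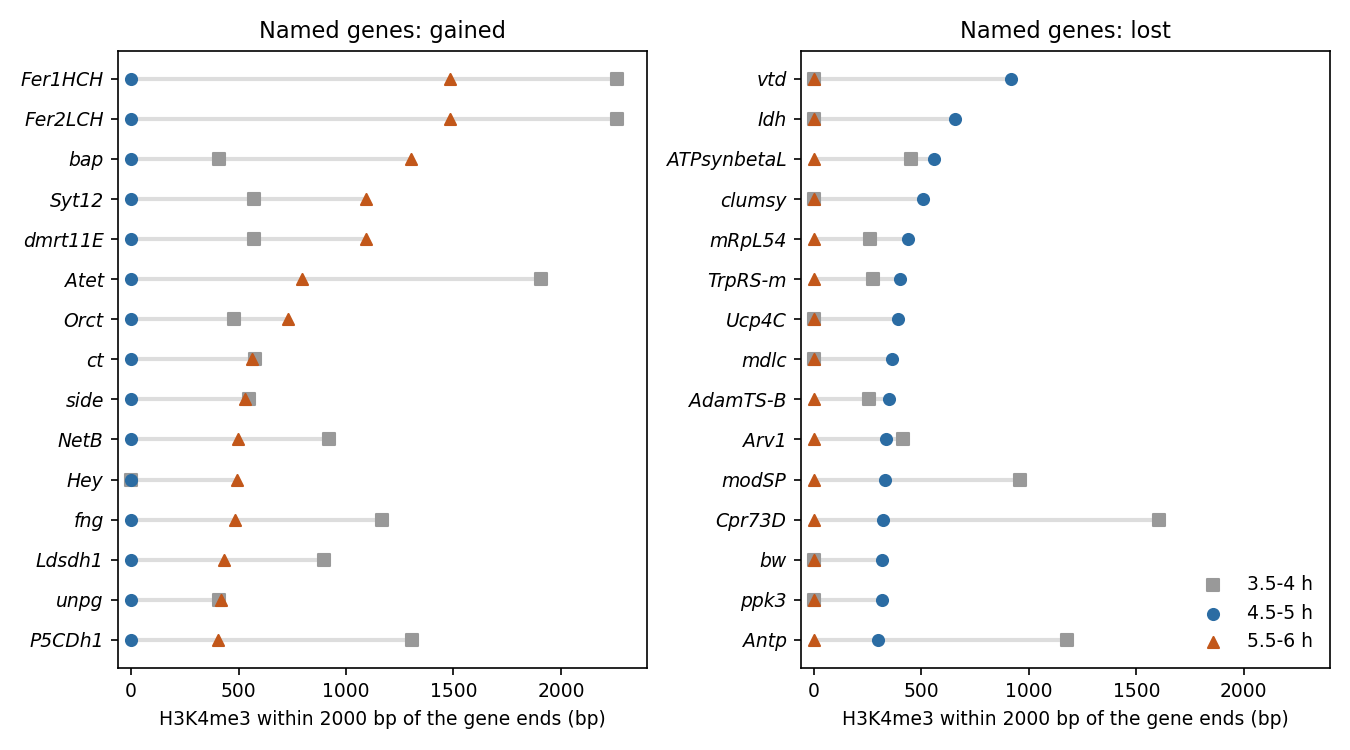
Length covered by H3K4me3 peaks (bp, within 2000 bp of the gene ends) at 3.5 to 4 h, 4.5 to 5 h and 5.5 to 6 h in w1118 for the 15 gained and 15 lost genes named by rule. At 5.5 to 6 h the gained genes lie between 404 and 1482 bp, and 14 of the 15 also had the mark at 3.5 to 4 h.

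The earlier list, which the sorting did not use, held most places that were gained. Of the 213 gained genes 161, or 75.6% (69.2 to 81.2%), were marked at 3.5 to 4 h, against 65 of 104 lost genes (62.5%, 52.5 to 71.8%), 99.3% of kept genes and 7.05% of genes marked at neither time. The median covered length of the gained genes was 1023 bp at 3.5 to 4 h, 296 bp at 4.5 to 5 h and 759 bp at 5.5 to 6 h. For the lost genes it was 942, 836.5 and 428.5 bp. The classes were defined by the 2 later lists. This favours low values at 4.5 to 5 h for gained genes and at 5.5 to 6 h for lost genes. Of gained peaks 64.5% (60.6 to 68.2%) met a 3.5 to 4 h peak and of lost peaks 43.8% (37.5 to 50.3%), while kept peaks under 500 bp did so in 87.5% and 88.5% of cases. The 3.5 to 4 h list was the longest of the 3, with 6475 peaks over 6.363 Mb. When it was limited to as many of its widest peaks as the 4.5 to 5 h list holds, the shares were 37.9% for gained and 26% for lost peaks. The order of both classes was the same, at lower shares.

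Genes kept at both times mostly differed little in covered length. Their median difference was 18 bp (interquartile range −62 to 112 bp). The covered length was at least 1.5-fold higher at 5.5 to 6 h at 115 kept genes (1.8%) and at least 1.5-fold lower at 73 (1.14%). Of the 115, 109 were marked at 3.5 to 4 h, and only 7 of these were also 1.5-fold over their 3.5 to 4 h length. The 115 were picked by their increase, which favours low values at 4.5 to 5 h. Among 6339 genes marked at all 3 times, 87 (1.37%) were at least 1.5-fold lower at 4.5 to 5 h than at both other times, and 8 (0.126%) were as much higher. The counts were 64 and 29 with equal numbers of the widest peaks and 84 and 28 with peaks of at least 500 bp.

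The 10 kept genes with the largest increases had varied roles. wor (worniu; 2L 15423297 to 15425580), a Snail family factor of neuroblasts, had 1818, 757 and 1902 bp at the 3 times. CrebA, which drives secretory pathway genes in the salivary gland, had 3219, 1849 and 2907 bp. Thor, the repressor of cap-dependent translation 4E-BP, had 1330, 324 and 1267 bp. me31B, an RNA helicase that represses translation, had 1632, 807 and 1718 bp, and Hsc70-4, a chaperone of the heat shock protein family, 1690, 1049 and 2048 bp. CkIIalpha-i3 had the largest gain in length, with 2664, 1091 and 2389 bp. Axs, GalT1, Surf6 and nclb completed the 10. All 10 were lower at 4.5 to 5 h than at 3.5 to 4 h, but the choice of the largest increases favours low values at 4.5 to 5 h.

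The 10 largest decreases were likewise of varied roles. CycA, the mitotic cyclin, had 2713, 3046 and 2206 bp. arm (armadillo), the beta-catenin of flies, had 4037, 4829 and 4001 bp, and its neighbour Ldaf1, which shares part of the window, 2394, 3116 and 2317 bp. Coop, a corepressor of Wnt target genes, had 1834, 2447 and 1480 bp. asun and its neighbour bor both had 1771 and 2628 bp at the first times and then 1363 and 1755 bp. net, a bHLH factor gene of wing vein patterning, had 1832, 1810 and 848 bp. Vps51, sinah and tHMG1 completed the 10. All but net were higher at 4.5 to 5 h than at 3.5 to 4 h, but the choice of the largest decreases favours high values at 4.5 to 5 h. The genes with the longest cover hardly differed, as at Mcr, with 4454 and 4435 bp, and Dark, the apoptosome gene, with 4183 and 4173 bp.

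**Figure D3:**
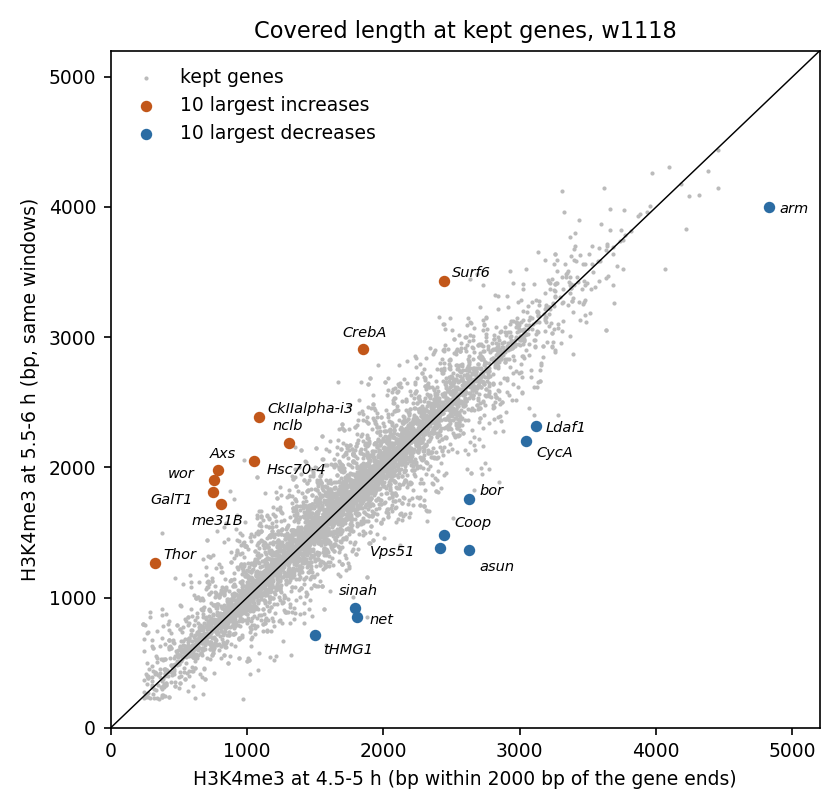
Covered H3K4me3 length (bp) of genes kept at both times in w1118, 4.5 to 5 h on the x axis and 5.5 to 6 h on the y axis, each point a gene, with the 10 largest increases and decreases named and the line of equality drawn. The points follow the line, with 115 genes at least 1.5-fold above it and 73 as far below.

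Of 29 gene lists, with 715 distinct genes, 10 members were gained, 6 lost, 296 kept and 403 unmarked. The gained share, 10 of 715 members, was close to the 1.53% over all genes, and the lost share, 6 of 715, to the 0.746%. The lists were chosen with earlier results known, so these counts describe their members only. With equal numbers of the widest peaks 5 members were gained and 11 lost, so the balance turned under that setting.

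Of the 10 gained members, 6 were on the lists of neuroblast and proneural genes, neuroblast timing factors or segment polarity genes. These lists were put side by side after their gained members were seen. Of 18 neuroblast and proneural genes 2 were gained, 0 lost and 13 kept. scrt (scratch), a Snail family factor of neurons, had 1654, 644 and 1238 bp, and pros (prospero), which ends neuroblast divisions in daughter cells, 1072, 574 and 836 bp. Of the kept members wor and insc (inscuteable), which orients neuroblast divisions, were at least 1.5-fold higher. Of 7 timing factors pdm2 and grh (grainy head) were gained, with 264, 0 and 283 bp and 1753, 1475 and 1721 bp, and 0 were lost. With equal numbers of the widest peaks scrt differed by 117 bp, pros by 5 bp and grh by 4 bp. Of 14 segment polarity genes gsb-n (gooseberry-neuro; 683, 396 and 900 bp) and H15 (328, 0 and 249 bp) were gained and 8 kept, H15 by a peak that equal numbers of the widest peaks leave out (difference 0 bp), and gsb, at 1267, 1134 and 1806 bp, was at least 1.5-fold higher.

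Other gained members were bap of 20 mesoderm factors and Egfr of 11 EGF receptor pathway genes, the latter at 1345, 919 and 1407 bp. Egfr was called gained at its window, but 0 gained and 3 lost peaks lay in the gene or within 500 bp of it. Over that span its covered length was 4378 bp at 4.5 to 5 h and 3584 bp at 5.5 to 6 h. cora (coracle), of 12 septate junction and epithelial genes, was also gained, at 2237, 923 and 1364 bp. Act57B of 15 muscle structural genes was called gained at its window while its covered length was 604 bp at 4.5 to 5 h and 564 bp at 5.5 to 6 h. Muscle genes were otherwise 3 kept and 11 unmarked. No muscle gene, myoblast fusion gene or tracheal gene was kept with a 1.5-fold difference in either direction. These lists had only 3, 5 and 7 kept members. Over all kept genes 1.8% were higher and 1.14% lower, so 0 among so few says little about these lists.

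Lost members were Antp, tll (tailless), repo, Brd, ph-p and Cpr73D. repo, which directs glial fate, had 770, 1018 and 589 bp, and Brd (Bearded), a Notch signalling regulator, 5, 297 and 137 bp. tll, of the terminal gap system, was lost at its window but had 754 and 826 bp within 2000 bp at the 2 times. ph-p, a Polycomb group gene, had 1406, 1633 and 1460 bp, with 0 lost peaks in the gene or within 500 bp of it. Only Antp and Cpr73D among the lost members therefore had 0 bp at 5.5 to 6 h.

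Segmentation and Hox genes, which act early, were mostly kept or unmarked. Of 9 pair-rule genes 8 were kept, with ftz at least 1.5-fold higher and prd (paired; 1375, 968 and 220 bp) and eve (even-skipped) at least 1.5-fold lower. Of 8 Hox genes 3 were kept, and lab (labial), with 902, 1023 and 411 bp, was at least 1.5-fold lower. Scr (Sex combs reduced) was unmarked at its ends but had 1211, 342 and 750 bp within 2000 bp of them. Of 10 gap genes 8 were kept. Of 18 Notch pathway and E(spl) genes 15 were kept, with a median difference of 131 bp against 18 bp over all kept genes. Such medians ranged from −246 bp for ecdysone biosynthesis genes to 190.5 bp for hemocyte genes. Neighbouring E(spl) genes can share covered length, so the 15 are not independent. E(spl)mgamma-HLH, a Notch-induced repressor with 1669, 1105 and 1665 bp, and E(spl)malpha-BFM were at least 1.5-fold higher.

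Housekeeping lists held no gained or lost gene, beside 1.53% gained and 0.746% lost over all genes. With shares that low, 0 in lists of this size does not set them apart. Of 92 ribosomal protein genes, 7 had a gained peak in the gene or within 500 bp of it and 3 a lost one. For 48 proteasome genes the counts were 1 and 2, and over all genes the shares were 4.5% and 1.85%. Of 92 ribosomal protein genes 84 were kept. The kept ones had a median difference of 78.5 bp, against 18 bp over all kept genes. Of them 0 were at least 1.5-fold different, beside 1.8% higher and 1.14% lower over all kept genes. Of 48 proteasome genes 32 were kept, and Rpt3R, a testis paralog, was at least 1.5-fold lower. All 6 histone variant genes and 13 of 15 cell cycle genes were kept. Genes with late or restricted roles were mostly unmarked. These were 167 of 179 chemoreceptor genes and 115 of 119 cuticle protein genes.

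**Figure D4:**
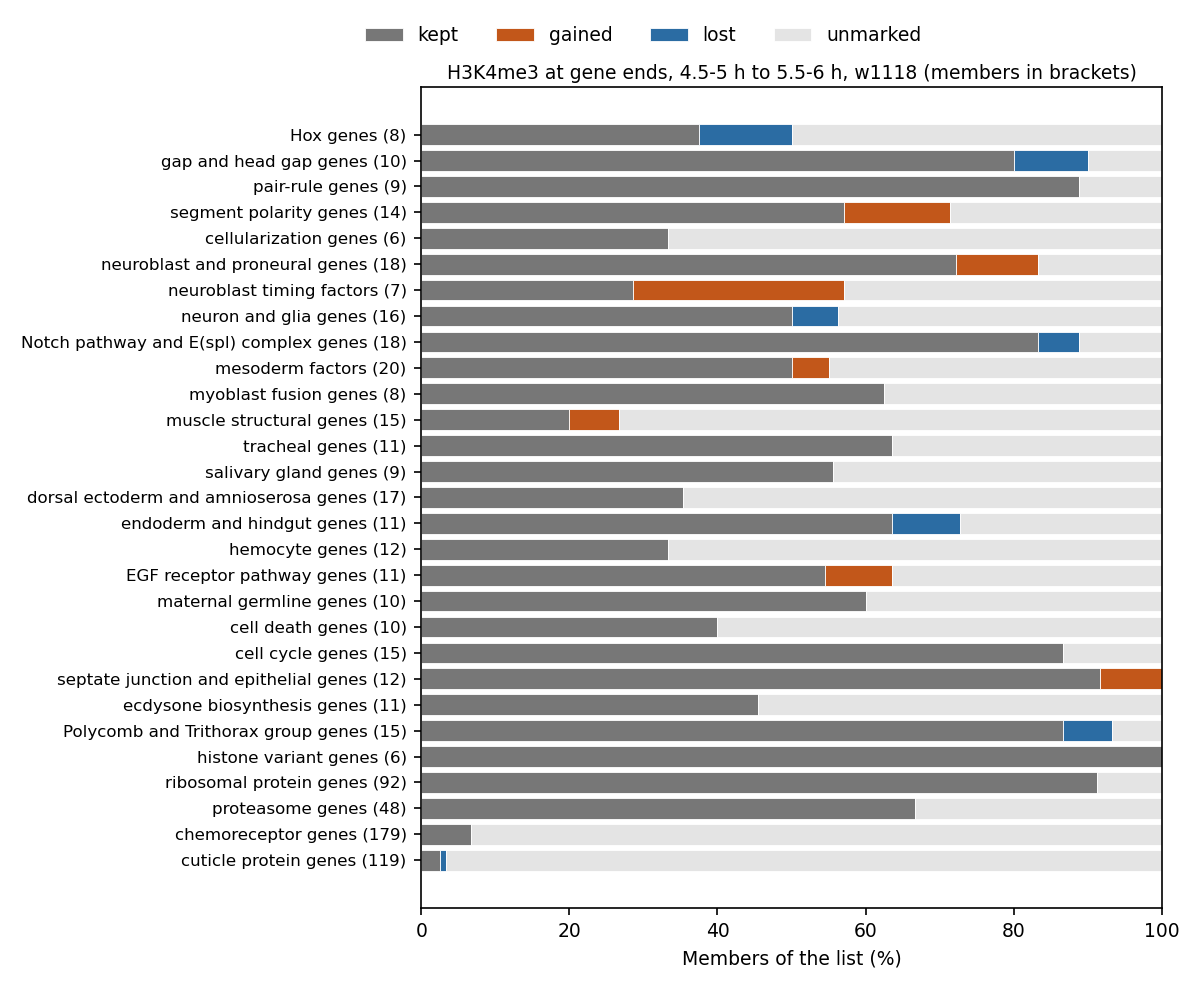
Share (%, x axis) of the members of each gene list (y axis, number of members in brackets) that were kept, gained, lost or unmarked for H3K4me3 between 4.5 to 5 h and 5.5 to 6 h in w1118. Gained and lost members, 10 and 6 of 715 distinct genes, are a small part of most lists, and the largest gained part is 2 of 7 neuroblast timing factors.

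H3K27me3 was more frequent at genes gained than at genes kept. At 4.5 to 5 h it lay at 23.5% of gained genes (18.0 to 29.7%), 12.5% of lost genes (6.83 to 20.4%), 5.72% of kept genes and 14.4% of genes unmarked at both times. At 5.5 to 6 h the shares were 24.9%, 11.5%, 5.80% and 13.4%. Over peaks H3K27me3 met 23.6% of gained peaks, 22.3% of lost peaks and 21.8% and 22.8% of kept peaks under 500 bp, against 11.1% and 11.2% of all kept peaks.

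Other marks were read at the same time as the peaks. H3K27ac met 67.8% of gained peaks (64.0 to 71.5%) and 70.6% of kept peaks under 500 bp at 5.5 to 6 h. It met 48.8% of lost peaks (42.3 to 55.2%) and 67.5% (64.1 to 70.7%) of kept peaks under 500 bp at 4.5 to 5 h. H3K36me3, which covers transcribed gene bodies, met 53.2% of gained peaks (49.3 to 57.2%) and 54.0% of kept peaks under 500 bp at 5.5 to 6 h. It met 49.6% of lost peaks (43.1 to 56.1%) and 43.8% (40.3 to 47.3%) of kept peaks under 500 bp at 4.5 to 5 h, and 78.5% and 69.7% of all kept peaks at the later and the earlier time. H2AK9ac met 48.3% of gained peaks (44.4 to 52.3%) and 46.7% of lost peaks (40.3 to 53.2%), above the 34.8% and 33.8% of kept peaks under 500 bp. H2BK16ac likewise met 44.7% of gained and 39.7% of lost peaks, above 32.1% and 25.5%. These 2 acetylation lists are of the broad type, and their peaks were called otherwise than those of H3K4me3.

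**Figure D5:**
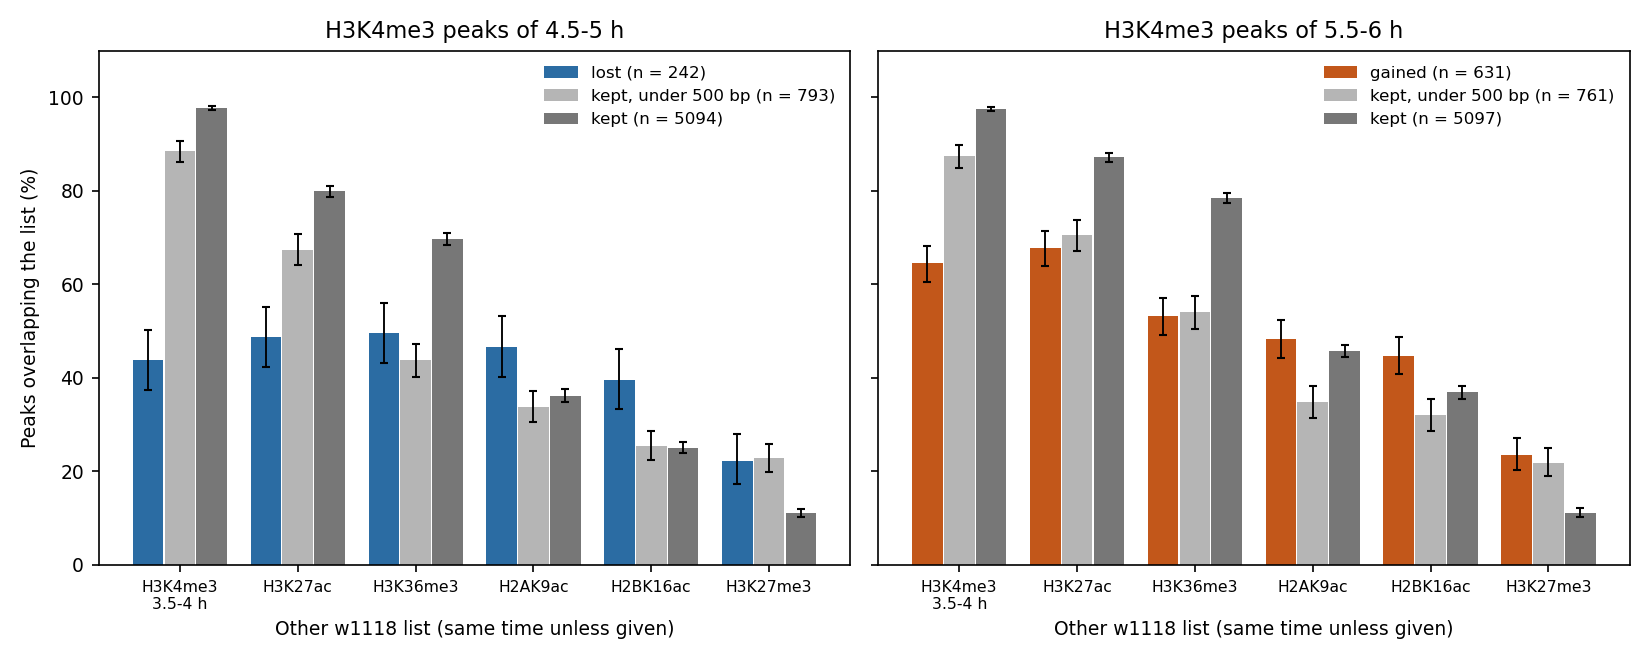
Share (%) of lost, kept and gained H3K4me3 peaks of w1118 overlapping other w1118 lists, with 95% Clopper-Pearson intervals as error bars. The 3.5 to 4 h H3K4me3 list met 64.5% of gained and 43.8% of lost peaks, and H2AK9ac met 48.3% and 46.7% of them.

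HisC lists held gained and lost places about equally often. The HisC 4.5 to 5 h list met 37.7% of gained and 39.3% of lost peaks, and the HisC 5.5 to 6 h list 49.8% and 47.9%. Kept peaks under 500 bp of the same w1118 lists were met more often, at 47.8% and 47.7% and at 65.7% and 65.6%. For all kept peaks the shares were 83.4% and 83.6%, and 90.8% and 90.9%. Of the 213 genes gained in w1118, 38 (17.8%) were gained in HisC, where 5.67% of all genes were, and 12 were lost, where 2.56% were. Of the 104 genes lost in w1118, 18 (17.3%) were gained in HisC and 9 (8.65%) lost. The shares gained in HisC were thus close for genes gained and genes lost in w1118. H3K27ac gave close shares as well. Of the 213 gained genes 20 (9.39%) were gained for H3K27ac and 11 lost, and of the 104 lost genes 12 (11.5%) were gained and 7 lost, beside 5.59% gained and 4.12% lost over all genes.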

How the data were processed

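The files hold peak positions (chromosome, start and end on dm6), 1 list for each group, as deposited by the authors, with no height, count or p-value. Per the submitters' processing notes, the tools were Bowtie2 2.3.4.2, deepTools 3.3.1, SAMtools 1.9, cutadapt 1.17 and Trim Galore 0.6.6. Which program called the peaks, at what threshold, and how the libraries of a group became 1 list is not given in the sources used here. File names call the H3K4me3 and H3K27ac peaks narrow. Depth is unknown, which limits every count of peaks.

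Overlaps, covered length and gene classes were computed in Python 3.11.15 with pandas 2.3.3 and numpy 2.4.6, and intervals with scipy 1.17.1. The scripts were checked on simulated lists. Gene positions came from the RefSeq table of Release 6, without strand, so both gene ends were used. Of the symbols in the gene lists 6 found no match and were not used here. The members and lists were chosen with earlier results of these data known. Named genes were, without CG or CR numbers, the 15 gained and 15 lost genes with the longest cover and 0 bp at the other time, the 10 largest increases and decreases and the 5 longest among kept genes, gained and lost list members, and the 2 largest differences in each list. Some of these are given only in counts. The 5 widest gained and lost peaks were named likewise. Alternatives were a minimum width, equal numbers of the widest peaks, other overlap rules and windows, and all genes of the table.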

Additional observations from a re-analysis of the deposited data

Results flagged for a closer look

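Differences from 4.5 to 5 h to 5.5 to 6 h that had opposite signs in w1118 and HisC are listed here, for genes under the 1.5-fold rule below. Each rests on 1 pooled list per group and time, and the difference between the genotypes was not tested. The median peak width differed by −44 bp in w1118 and by 77 bp in HisC. In w1118 it differed by 8 bp with peaks of at least 500 bp and by 7.5 bp with equal numbers of the widest peaks. The negative sign in w1118 thus did not hold there, and HisC was not computed under these settings. Named genes are listed only where covered length within 2000 bp of their ends differed at least 1.5-fold in both genotypes, in opposite directions. These were 16 of 111 distinct named genes. Many of the 111 were named for large w1118 differences, which favours meeting this rule. The share over all genes was not computed, so the count describes the named genes only. Smaller differences of opposite sign, as at Vps51 and arm, are not listed.

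Listed genes with more cover at the later time in w1118 and less in HisC were Axs (1192 and −388 bp), E(spl)mgamma-HLH (560 and −400 bp), Hey (493 and −809 bp), fng (485 and −413 bp), Scr (408 and −324 bp) and btl (231 and −458 bp). For btl the w1118 difference was 0 bp with equal numbers of the widest peaks, so its opposite sign did not hold there. Hey, fng and E(spl)mgamma-HLH belong to Notch signalling or its targets, and they were put side by side after their values were seen.

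Listed genes with less cover at the later time in w1118 and more in HisC were net (−962 and 1182 bp), sinah (−874 and 700 bp), prd (−748 and 1559 bp), spo (−622 and 189 bp), clumsy (−507 and 347 bp), mRpL54 (−439 and 380 bp), mdlc (−362 and 247 bp), Arv1 (−335 and 428 bp), Cpr73D (−321 and 528 bp) and bw (−314 and 1128 bp). HisC lists were longer than those of w1118, with 8613 and 8991 peaks, and the part of list length in these signs was not tested.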

How the results depend on the processing

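No paired analysis was possible because each group has 1 pooled list that carries no replicate number, and no replicate could be left out for the same reason. Windows at both gene ends were the main setting, so that alternative was not run apart. Over the main results 45 alternative values stayed in their range, 29 moved and 2 reversed, and over single genes 96 stayed, 15 moved and 0 reversed. Peaks gained were 252 with a minimum of 500 bp and 373 with equal numbers of the widest peaks. The log2 ratio of covered length was then 0.0252 and 0.0218, and the difference in median width turned from −44 to 8 and 7.5 bp. Gained and lost list members were 5 and 11 with equal numbers. After seeing the data, 0 bp within 2000 bp at the other time was required, leaving 98 gained and 34 lost genes. Kept genes highest at 4.5 to 5 h were 29 with equal numbers and 28 with a minimum of 500 bp. With a peak within 500 bp counted as met, lost peaks gave 53.3% for H2AK9ac, 56.2% for H3K36me3 and 51.2% for the 3.5 to 4 h list, and gained peaks 71.6% for H3K27ac, 52.6% for H2AK9ac, 58.2% for H3K36me3 and 68.9% for the 3.5 to 4 h list. Kept peaks gave at 4.5 to 5 h 83.5% for H3K27ac, 41.3% for H2AK9ac, 29.8% for H2BK16ac, 76.4% for H3K36me3 and 98.2% for the 3.5 to 4 h list, and at 5.5 to 6 h 89.5%, 50.8%, 42.2%, 83.9% and 98.1%. With the 3.5 to 4 h list limited to its widest peaks, chosen after seeing the data, lost peaks gave 26% and gained peaks 37.9%. Equal numbers leave out the narrowest peaks of the longer lists by construction; the cause of the other shifts was not tested.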

Other observations

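Gained peaks sometimes came as neighbours, with at least 3 in a row and no kept peak between them. Among other runs not named here, the ferritin genes Fer1HCH and Fer2LCH had 3 within 2.509 kb, and scrt 3 within 4.632 kb. Raf, the kinase of the Ras pathway, had 4 within 19.2 kb, and chn (charlatan), a zinc finger gene of sense organ development, had 3 within 19.1 kb. Lost peaks did so over Egfr and its neighbours (3 within 10.016 kb) and over pyd, a cell junction scaffold gene (3 within 10.7 kb). A run of 4 lost peaks over Myo81F was spread over 1384.61 kb and is not a close cluster.

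Shares of gained peaks were alike on the large chromosome arms, from 9.97% on 3L to 11.5% on X. They were 16.7% on chromosome 4 (13 of 78, 9.18 to 26.8%) and 28.6% on Y (6 of 21, 11.3 to 52.2%), where few peaks were called. Lost peaks were 5.41% on 3R and 3.01% on X.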
